A study of Gallus gallus with 45 samples.

Results

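The solute carrier (SLC) genes are the membrane transporters that bear an SLC symbol, and the genes described here are those other than the 10 best known transporters of sugars, amino acids, peptides and iron in the jejunum, which were left out by name (SLC5A1, SLC2A2, SLC2A5, SLC15A1, SLC6A19, SLC7A9, SLC3A1, SLC1A1, SLC40A1 and SLC11A2). The array held 73 such genes with 148 probes, among 4655 genes with a symbol. They were measured in whole jejunum of 2 genetically divergent broiler lines, line Y and line X, that carried no treatment and were kept on the same floor system with free access to feed. The authors reared the lines at the same time but in separate pens, so line and pen cannot be told apart. Jejunum RNA from 10 birds was combined in each pool, and each pool went on 1 one-colour array. There were 7 pools of line Y and 7 pools of line X at day 0, 7 of line Y and 8 of line X at day 4, and 8 of line Y and 8 of line X at day 16. A pool gives the average of its birds, so the spread between pools is not the spread between chickens. For the 7 line Y pools numbered 2 to 8 the titles name day 4 but the age field names day 0. They were placed at day 0 by the age field, and every value given for line Y at day 0 rests on this placement. The paper's supplementary list of microbiota pools also gives age 0 for the line Y pools numbered 2 to 8. Each of the 6 groups lay on its own slide, so slide and group cannot be told apart in any comparison.

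Solute carriers move ions, nutrients, vitamins, metals and metabolites across membranes, as exchangers, cotransporters driven by an ion gradient or facilitated carriers. In the small intestine those of the brush border take up what digestion releases, those of the basolateral membrane pass it on to the blood, and carriers in mitochondria, the Golgi apparatus and vesicles serve the cell itself. Nerve endings and blood cells in the gut wall carry SLC proteins of their own. After hatch the chick turns from lipid-rich yolk to a diet rich in carbohydrate, and the jejunum grows quickly in that period.

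Levels are log2 intensities after background correction and quantile normalization, averaged over the probes of a gene, and are read between groups for 1 gene, never between genes. A gene was tested if a probe lay above 1.1 times the log2 level of the highest dark corner spot, an empty control spot, in every pool of at least 1 group. Whether this factor belongs on the log2 or the linear scale is not settled in the sources used here; it was taken on the log2 scale, and every statement on this limit rests on that. Of the 73 genes, 57 were tested. Of those, 25 lay above the limit in all 6 groups and 32 in some groups only, so that a count over the 57 is a description of genes bright somewhere, not of the family as a whole. The line X pool numbered 12 at day 4 had by far the highest dark corner (9.73, against 7.73 in the next array and a median of 5.37); without it, 43 genes lay above the limit in all 6 groups. The scanner marked 55 of the 57 genes as well above background in all 45 pools. The exceptions were SLC18A3, so marked in 4 of the 8 line X pools at day 16 and in all other pools, and SLC39A13, missing from 1 line X pool at day 4. A gene was called different when limma's adjusted p was below 0.05 over all 21443 features tested and the fold change exceeded 1.3. Median raw intensity per array ran from 197 to 262 in line Y and 140 to 173.5 in line X at day 0, from 136 to 199 in line Y and 141 to 195 in line X at day 4, and between 110 and 183 in line Y and 78 and 170 in line X at day 16. The line Y arrays at day 0 were thus brighter than the line X arrays before normalization; what this does to the line comparison at day 0 was not tested.

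The tissue label was checked against marker genes. All 8 enterocyte markers on the array (VIL1 and APOA4 among them) were well above background in at least 1 pool of every group, and their summed level stayed between 218000 and 276000 intensity units in all pools. The 7 pancreas markers summed to 253 to 7080 units, highest in 1 line X pool at day 16. The 7 liver markers summed to 416 to 6050 units, highest in a line X pool at day 0. Other cell types shifted with age. The 8 erythrocyte genes summed to 17100 to 36500 in line Y and 10000 to 15900 in line X at day 0, to 192000 to 236000 in line Y and 156000 to 221000 in line X at day 4, and to 41400 to 117000 in line Y and 29300 to 129000 in line X at day 16. The 7 leukocyte genes summed to 2500 to 3780 and 3140 to 4150 (line Y and line X) at day 0, to 8420 to 12000 and 8680 to 10300 at day 4, and to 23400 to 31600 and 29800 to 36000 at day 16. All 5 smooth muscle genes tested were lower at day 16 than at day 4 in both lines, with medians of -0.47 in line Y and -1.06 in line X on the log2 scale. Between the lines at day 16, 3 of the 5 were higher and 0 lower in line Y (median 0.44), beside 18.6% of all features higher. Of 5 leukocyte genes tested, 3 were lower in line Y at day 0 and 2 at day 16, with 0 higher. Of all features, 19.3% and 14.6% were lower. The part of these cell types in the transporter results was not tested, and in whole tissue fewer cells of a type and less RNA per cell cannot be told apart.

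The first question was which of these transporters differed between the lines at each age. At day 0, 18 of 57 genes differed, 11 higher and 7 lower in line Y than in line X. SLC25A15, a mitochondrial ornithine carrier, was 2.95-fold higher in line Y and SLC24A2, a sodium/calcium-potassium exchanger, 3.31-fold lower. This share of 31.6% stands beside 37.6% of all features (18.2% higher, 19.3% lower) and 30.2% of all genes with a symbol. Under scaling to each array's 75th percentile the split was 13 higher and 4 lower. The median difference was 0.05 for the transporters, 0.04 for genes with a symbol and -0.03 for all features. In 11 of the 57 the pools of the lines did not overlap, against 26.4% of all features. SLC25A15, SLC26A5, SLC39A13 and SLC9A8, among the 11 higher, passed the dark corner limit only in line Y at day 0 and line X at day 16. The filter thus partly sets the count of genes higher in line Y.

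At day 4 the lines differed in 11 genes, 3 higher and 8 lower in line Y, which is 19.3% of the 57, beside 23.2% of all features (12.1% higher, 11% lower) and 17.3% of genes with a symbol. Scaling to the 75th percentile gave 5 higher and 7 lower. SLC39A13, a zinc transporter, and SLC25A15 led those higher in line Y, and SLC24A2 and SLC41A2, a magnesium transporter, those lower. At day 16, 4 were higher and 10 lower in line Y, which is 24.6%, beside 33.3% of all features (18.6% higher, 14.6% lower) and 24.5% of genes with a symbol. Scaling to the 75th percentile gave 4 higher and 15 lower. SLC24A2, SLC41A2 and the phosphate cotransporter SLC34A2 were lower in line Y by more than 1 log2 unit. Pools of the lines did not overlap for 5 genes at day 4 and 6 at day 16, against 12.2% and 13% of all features. The medians were -0.04 at day 4 and -0.09 at day 16, against -0.05 and 0.02 for all features and -0.02 and -0.04 for genes with a symbol. SLC22A4 and SLC39A13, among the 10 lower at day 16, passed the dark corner limit only in line X at day 16 and line Y at day 0.

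The other question was how the transporters moved as the chicks aged. At day 4 relative to day 0, 8 rose and 15 fell in line Y, and 15 rose and 13 fell in line X. These shares of 40.4% in line Y and 49.1% in line X stand beside 42.5% (18.2% higher, 24.3% lower) and 51.7% (25% higher, 26.7% lower) of all features, and beside 36.7% and 47.4% of genes with a symbol. The lactate transporter SLC16A3, SLC41A2 and the glucose transporter SLC2A14 rose most in line Y, and the chloride/bicarbonate exchanger SLC26A3 and the vesicular acetylcholine transporter SLC18A3 fell most. There were 18 genes that moved the same way in both lines, and 0 that moved in opposite directions. The matching count over all features was not made. Among the genes that fell in both lines, SLC16A7, SLC18A3 and SLC6A4 passed the dark corner limit only at day 0, where they were high. SLC25A15, which fell in line Y, passed it only in line Y at day 0 and line X at day 16. The filter thus partly sets the counts of falls and of shared directions. Day 4 pools did not overlap with day 0 pools for 22 genes in line Y and 20 in line X, against 30.4% and 38.2% of all features.

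At day 16 relative to day 4, 2 genes rose and 13 fell in line Y, and 9 rose and 14 fell in line X. These are 26.3% in line Y and 40.4% in line X, beside 30.1% (14.2% higher, 15.9% lower) and 34.8% (14.1% higher, 20.7% lower) of all features, and beside 26.8% and 30.4% of genes with a symbol. SLC22A4, SLC25A15, SLC26A5 and SLC39A13, among the 9 that rose in line X, passed the dark corner limit only in line X at day 16 and line Y at day 0. The filter thus partly sets the count and share of line X. SLC34A2 fell 12-fold in line Y and 7.57-fold in line X, the largest difference of any of the 57 genes in a comparison between 2 groups. In 9 genes the direction was shared by the lines, and SLC25A15 alone was called in opposite directions. Its call in line X was lost without the line X pool 13 of day 4 and with a background offset of 50. The pools of day 16 and day 4 did not overlap for 12 genes in each line, against 14.5% of all features in line Y and 16.6% in line X. Over both steps and in both lines 6 genes fell 4 times (SLC16A7, SLC18A3, SLC19A1, SLC24A2, SLC34A2 and SLC6A4) and 0 rose 4 times. SLC16A7, SLC18A3 and SLC6A4 passed the dark corner limit only in the day 0 groups, where they were high, so the filter partly sets that count. With a background offset of 50 the falls of SLC6A4 at day 4 in line X and of SLC24A2 at day 16 in line Y were no longer called. There were 12 genes of the 57 that were called in no comparison of 2 groups. Matching counts over all features were not made for these patterns, so they are not read as a trait of the family.

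**Figure D1:**
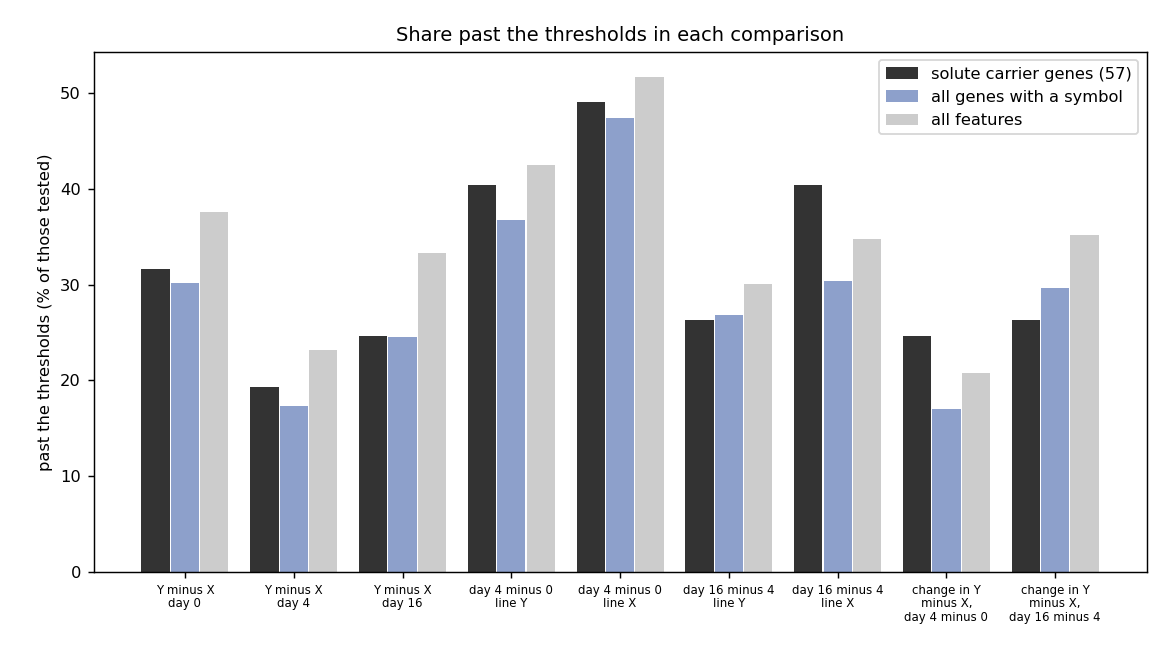
Percentage of features past the thresholds (vertical axis) in each of the 9 comparisons, for the 57 transporters (black), all genes with a symbol (blue) and all features (grey). The transporters' bars run from 19.3% to 49.1% and lie above those of all features in 2 comparisons, day 16 minus day 4 in line X and the change of the line difference between day 0 and day 4. Some genes called in these 2 comparisons passed the dark corner limit only in line Y at day 0 and line X at day 16, so the filter partly sets both bars.

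**Figure D2:**
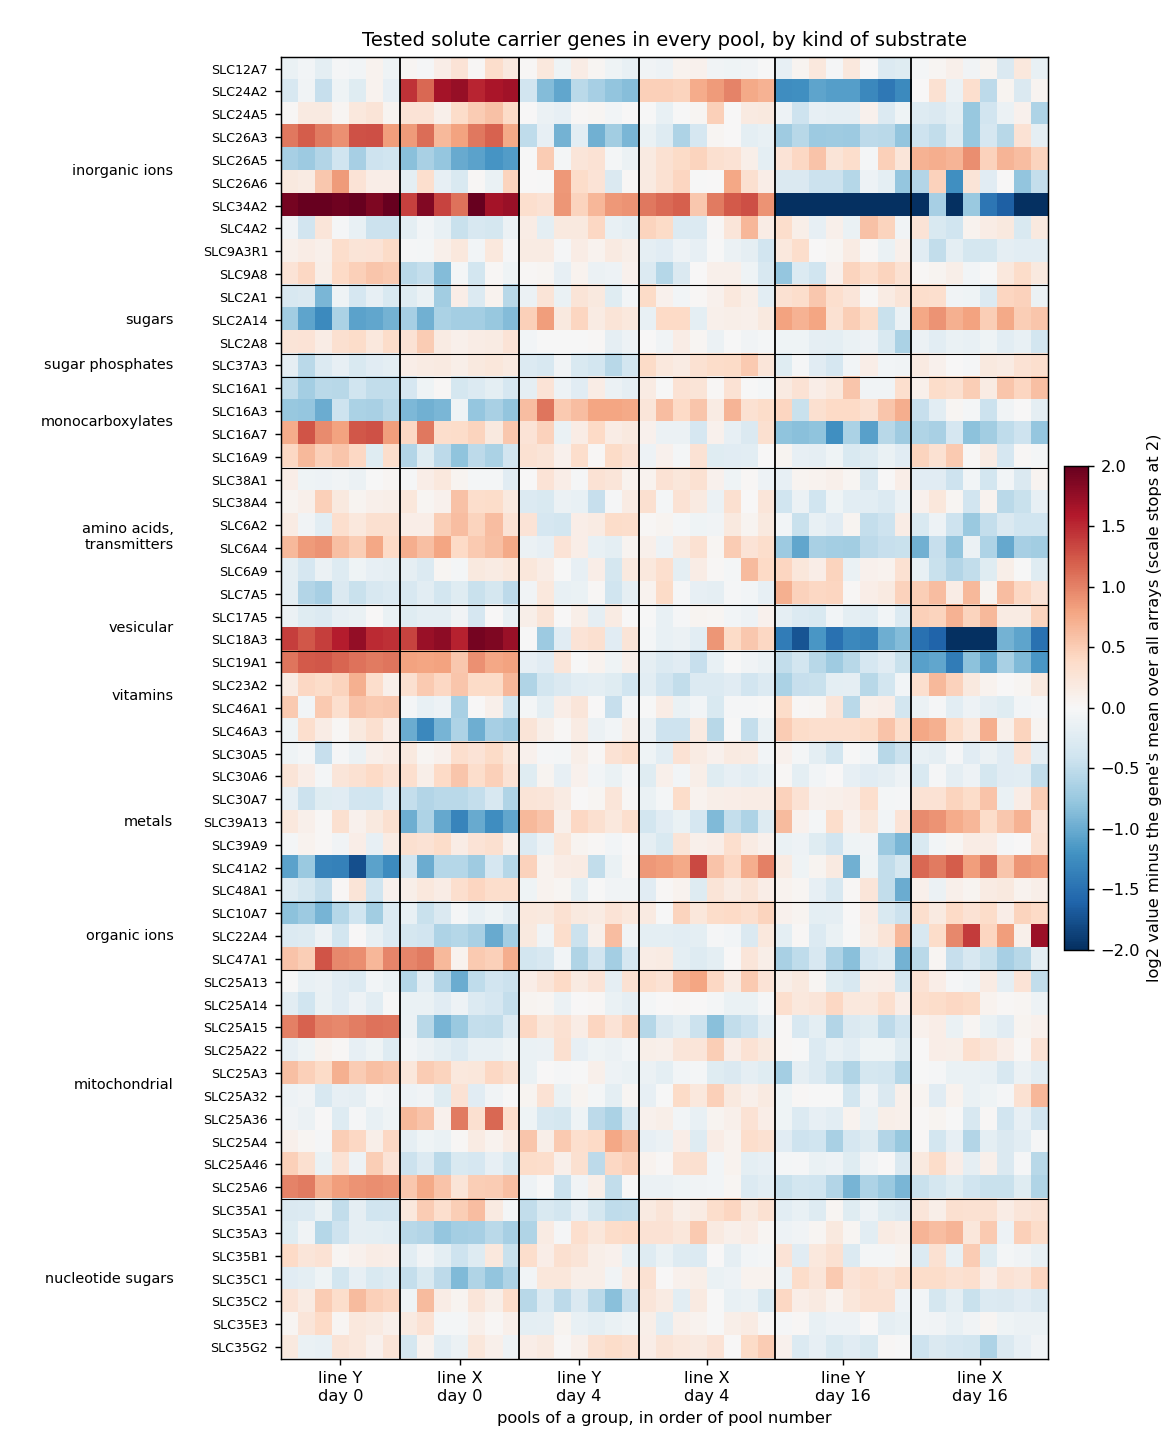
Log2 value of each tested gene in each of the 45 pools minus the gene's mean over all arrays (red above, blue below, scale stopped at 2), with genes in rows by kind of substrate and pools in columns by day and line. SLC34A2 and SLC18A3 are red in the day 0 pools and blue in the day 16 pools, while SLC24A2 stands higher in line X than in line Y at every age.

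Among the carriers of inorganic ions, SLC34A2 changed most. It encodes the sodium-phosphate cotransporter IIb, through which the brush border of the small intestine takes up phosphate. At day 0 its level ran from 11.90 to 12.56 (median 12.06) in line Y and from 11.12 to 12.19 (median 11.71) in line X. At day 4 it ran from 10.32 to 10.94 in line Y and from 10.57 to 11.32 in line X. At day 16 it ran from 6.72 to 7.39 (median 7.07) in line Y and from 6.90 to 9.38 (median 8.16) in line X. The days did not overlap within line Y, and at day 16 the line X pools spread far more widely than those of line Y. The difference of day 16 minus day 4 was -3.59 in line Y (95% interval -4.05 to -3.12, adjusted p = 5.2e-17) and -2.92 in line X (-3.37 to -2.47, adjusted p = 9.87e-15). Day 4 minus day 0 was -1.49 in line Y (adjusted p = 8.46e-07) and -0.56 in line X (adjusted p = 0.0307). This last call was lost when any of 4 single pools was left out, and its 3 probes gave -1.46 to -0.10. It was also lost under scaling to the 75th percentile and with the array position as a block. The line difference at day 16 was -1.09 (adjusted p = 7.75e-05), with overlapping pools, while the line differences of 0.52 at day 0 and -0.42 at day 4 did not pass (adjusted p = 0.0625 and 0.151).

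**Figure D3:**
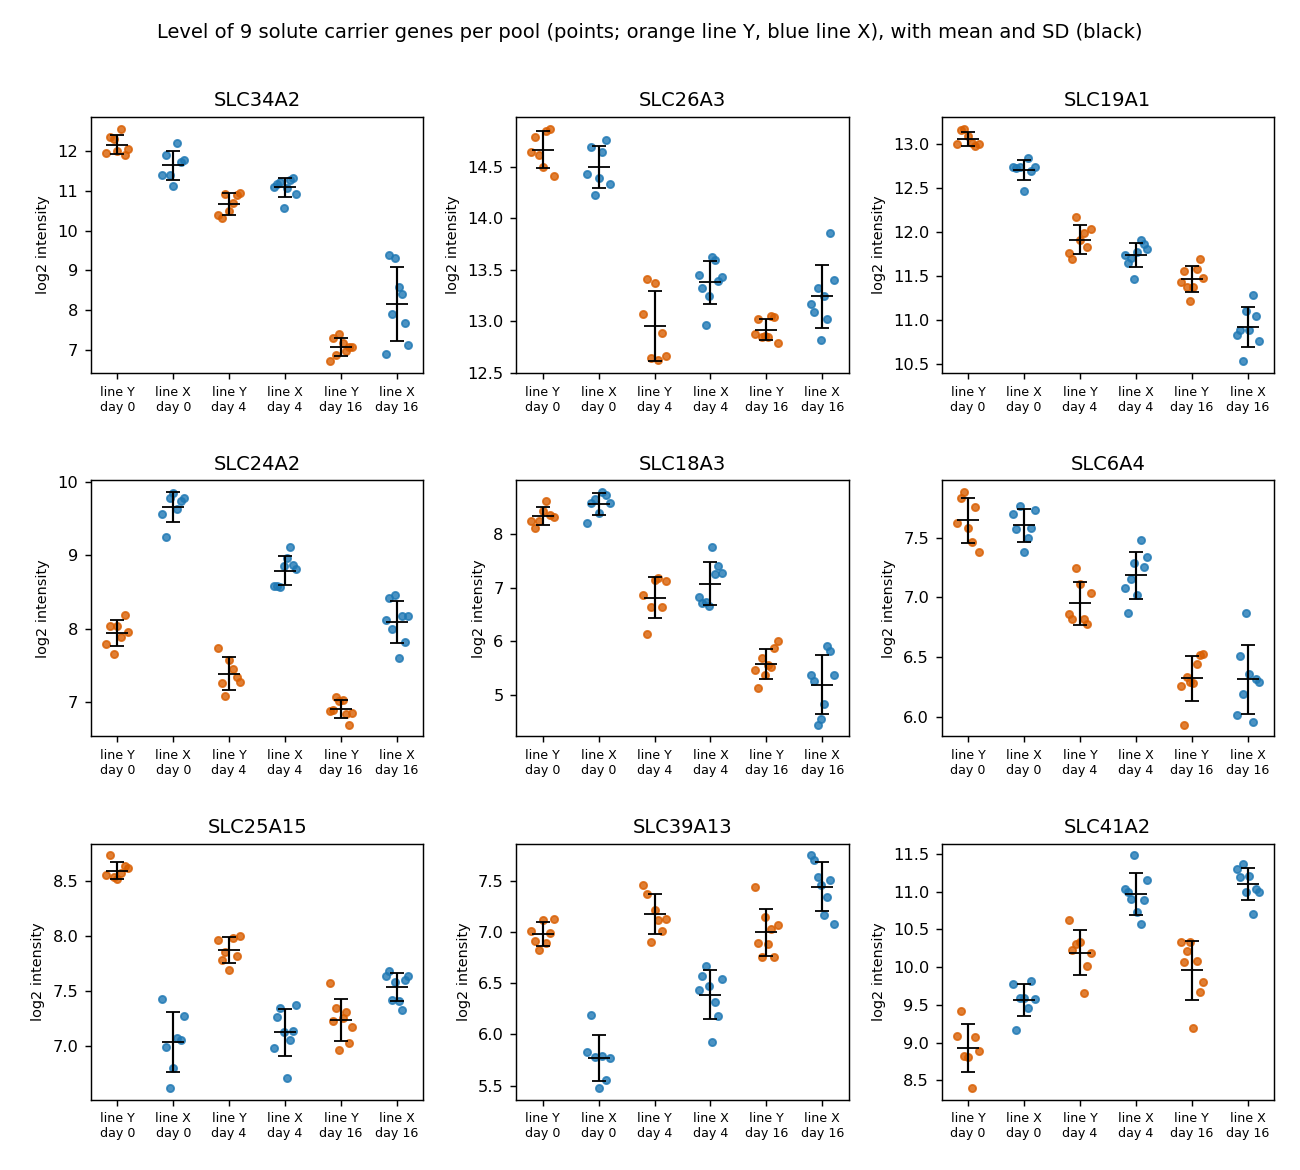
Log2 intensity (vertical axis) of 9 transporters in every pool of line Y (orange) and line X (blue) at days 0, 4 and 16, with the mean and SD of the group in black. SLC34A2 lies between 6.72 and 9.38 in the day 16 pools and between 11.12 and 12.56 in the day 0 pools, and SLC24A2 lies lower in line Y than in line X on every day.

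SLC24A2 exchanges sodium for calcium and potassium and is known in mammals from neurons and cone photoreceptors. At day 0 it ran from 7.65 to 8.18 (median 7.96) in line Y and from 9.26 to 9.86 (median 9.75) in line X. At day 4 it ran from 7.07 to 7.74 (median 7.33) in line Y and from 8.56 to 9.11 (median 8.83) in line X. At day 16 it ran from 6.68 to 7.06 (median 6.88) in line Y and from 7.59 to 8.45 (median 8.14) in line X. At each age every line Y pool lay under every line X pool. The log2 difference between line Y and line X was -1.73 ± 0.11 for day 0, -1.41 ± 0.11 for day 4 and -1.19 ± 0.10 for day 16 (± SE, adjusted p = 3.58e-17, 2.08e-14 and 1.48e-12). Its 2 probes gave line differences of -1.79 and -1.67 at day 0. The narrowing of the line difference did not pass the test in either step (0.32, adjusted p = 0.126, and 0.22, adjusted p = 0.254). SLC24A2 also fell with age in both lines, by 0.55 in line Y and 0.87 in line X at day 4, and by a further 0.48 in line Y and 0.70 in line X at day 16. It passed the dark corner limit only in both lines at day 0 and in line X at day 16. With a background offset of 50 its fall at day 16 in line Y was no longer called.

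SLC26A3, the down-regulated-in-adenoma exchanger that takes up chloride for bicarbonate in the gut, moved early. Its levels were 14.41 to 14.87 (median 14.64) in line Y and 14.23 to 14.76 (median 14.43) in line X at day 0, and 12.62 to 13.41 (median 12.88) in line Y and 12.96 to 13.62 (median 13.41) in line X at day 4. No pool of day 4 reached a pool of day 0 in either line. The fall was 3.28-fold in line Y and 2.18-fold in line X (adjusted p = 1.52e-15 and 7.12e-11), and the change of the line difference was -0.59 (adjusted p = 0.0109), which its brighter probe alone gave as -0.45, not past the test. That change was also lost under scaling to the 75th percentile. At day 16 SLC26A3 differed from day 4 by -0.03 in line Y and -0.13 in line X, neither past the test (adjusted p = 0.841 and 0.342). The anion exchanger SLC26A6 of the same family showed no call at day 4, but gave -0.56 in line Y and -0.59 in line X at day 16 relative to day 4 (adjusted p = 0.00764 and 0.00311).

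SLC26A5 carries the name of prestin, the motor protein of outer hair cells in the mammalian ear. It rose with age, to 7.22 to 7.84 in line Y and 7.14 to 7.78 in line X at day 4, against 6.61 to 6.93 in line Y and 6.16 to 6.68 in line X at day 0. The increase of 0.67 in line Y and 1.18 in line X (adjusted p = 2.46e-07 and 4.54e-14) left no overlap between the days (SLC26A5 passed the dark corner limit only in line Y at day 0 and line X at day 16), and the line difference changed by -0.51 (adjusted p = 0.00737). SLC9A8, a sodium/proton exchanger that falls outside the rule for named genes and was picked after its values were seen, gave a line difference of 0.73 at day 0 (adjusted p = 2.77e-05), but its probes gave -0.18 and 1.65. SLC9A8 passed the dark corner limit only in line Y at day 0, where it was high, and in line X at day 16. SLC4A2, a chloride/bicarbonate exchanger, rose at day 4 in line X by 0.40 (adjusted p = 0.00744), a call that ended when any of 4 pools was left out. The call also ended with a background offset of 50, under scaling to the 75th percentile and with the array position as a block. SLC9A3R1 bears an SLC symbol but encodes a scaffold protein that holds sodium/proton exchangers at the brush border. At day 16 it ran from 14.26 to 14.74 in line Y and from 13.90 to 14.21 in line X; the difference of 0.37 (adjusted p = 3.44e-06) left no overlap, although it stayed under the fold threshold. Of the 10 genes of ion transport tested, SLC9A3R1 included, 4 fell and 1 rose at day 4 in line Y, and 3 fell and 2 rose in line X, near the shares of 42.5% and 51.7% of all features called in that step. At day 16, 3 fell and 0 rose in line Y, and 4 fell and 1 rose in line X, beside 30.1% and 34.8% of all features.

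Of the 3 sugar carriers tested, SLC2A14 rose at day 4 in both lines. SLC2A14, a facilitative glucose transporter, had levels of 8.20 to 8.88 (median 8.30) in line Y and 7.86 to 8.45 (median 8.16) in line X at day 4, and of 6.78 to 7.41 (median 7.0) in line Y and 7.08 to 7.41 (median 7.36) in line X at day 0. In neither line did the days overlap. The increase was 2.50-fold in line Y and 1.83-fold in line X (adjusted p = 3.7e-11 and 2.14e-07). At day 16 it rose further in line X alone (0.56, adjusted p = 0.00026), against -0.01 in line Y, and the line difference changed by -0.57 (adjusted p = 0.0112). SLC2A1 (GLUT1, a widely expressed glucose transporter) and SLC2A8, an intracellular hexose transporter, were not called in any comparison; SLC2A1 gave 0.37 in line Y and 0.32 in line X for day 4 minus day 0, and SLC2A8 gave -0.32 in line Y and -0.25 in line X.

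Of the monocarboxylate transporters, SLC16A3 (MCT4), the exporter of lactate from glycolytic cells, ran from 7.89 to 8.43 (median 8.13) in line Y and from 7.53 to 8.04 (median 7.75) in line X at day 4. At day 0 it ran from 6.38 to 6.95 (median 6.72) in line Y and from 6.40 to 7.29 (median 6.58) in line X. All day 4 pools lay above all day 0 pools of their line. The gains were 2.68-fold in line Y and 2.20-fold in line X (adjusted p = 6.76e-13 and 7.62e-11). SLC16A3 then fell at day 16 by 0.40 in line Y (adjusted p = 0.00624) and by 0.58 in line X (adjusted p = 6.28e-05), and at day 16 it was higher in line Y by 0.50 (adjusted p = 0.000466). The fall in line Y depended on the line Y pools 10 and 18: without either, the call was lost, and the difference over single pools left out ran from -0.46 to -0.29. SLC16A1 (MCT1), which takes up short-chain fatty acids and lactate, was called higher at day 4 in line Y (0.47, adjusted p = 1.87e-05), and gave 0.34 in line X, under the fold threshold. Its 4 probes gave 0.18 to 0.75 in line Y and the 2 above the limit 0.18 and 0.31, so that the call was lost with those probes alone, with the brightest probe and with a background offset of 50.

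SLC16A7 (MCT2), a high-affinity pyruvate and lactate carrier, fell with age; it passed the dark corner limit only in the day 0 groups, where it was high. On day 0 it ran from 8.18 to 8.71 (median 8.39) in line Y and from 7.64 to 8.49 (median 7.86) in line X. On day 4 these ranges were 7.31 to 7.91 (median 7.64) in line Y and 7.10 to 7.77 (median 7.32) in line X. By day 16 they were 6.21 to 6.88 (median 6.64) in line Y and 6.61 to 7.10 (median 6.81) in line X. Line Y fell at each step with no overlap, by 0.80 and 1.05 (adjusted p = 1.36e-07 and 3.11e-10), and line X by 0.55 and 0.54 with some overlap. The line difference was 0.53 at day 0 (adjusted p = 0.00019) and -0.23 at day 16, not called (adjusted p = 0.0721). SLC16A9 (MCT9), outside the naming rule and picked after its values were seen, had a line difference of 0.90 at day 0 (adjusted p = 4.53e-09).

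SLC18A3 and SLC6A4, carriers of transmitters, fell at each step in both lines. SLC18A3 loads acetylcholine into synaptic vesicles. It ran from 8.11 to 8.62 (median 8.32) in line Y and from 8.21 to 8.78 (median 8.58) in line X at day 0. At day 4 it held values of 6.14 to 7.18 (median 6.86) in line Y and 6.65 to 7.75 (median 7.04) in line X, and at day 16 of 5.13 to 5.99 (median 5.55) in line Y and 4.44 to 5.92 (median 5.31) in line X. In each line the 3 days did not overlap, and the lines overlapped on each day. Day 4 minus day 0 was -1.52 in line Y and -1.49 in line X (adjusted p = 2.73e-09 and 1.3e-09), and day 16 minus day 4 was -1.24 in line Y and -1.88 in line X (adjusted p = 2.61e-07 and 2.63e-12). With a background offset of 50 these were -0.74 in line Y and -1.09 in line X, and only 4 of the 8 line X pools at day 16 were well above background. The later fall was smaller in line Y, the line difference changing by 0.64 (adjusted p = 0.035), a call that was lost when any of 11 of 31 pools was left out. Line differences did not pass on any day (adjusted p = 0.303, 0.262 and 0.0597). SLC18A3 and SLC6A4 passed the dark corner limit only in the day 0 groups, where they were high.

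SLC6A4, the serotonin transporter, which clears serotonin in the gut epithelium and in nerve endings, ran from 7.38 to 7.88 in line Y and 7.38 to 7.77 in line X at day 0. Its values were 6.77 to 7.25 in line Y and 6.87 to 7.48 in line X at day 4. They were 5.93 to 6.53 in line Y and 5.96 to 6.87 in line X at day 16. It fell by 0.69 in line Y and 0.42 in line X at day 4 (adjusted p = 5.86e-07 and 0.000538), and by 0.63 in line Y and 0.87 in line X at day 16 (adjusted p = 3.68e-06 and 1.3e-09). The call at day 4 in line X was lost with a background offset of 50 and without the line X pool 10 of day 4. The lines did not differ past the test at any age. Of 10 listed markers of enteric neurons and glia, 7 were on the array and 4 were tested (ELAVL4, UCHL1, STMN2 and SOX10). All 4 fell at day 4 in each line (medians -0.90 in line Y and -1.02 in line X), beside 24.3% of all features in line Y and 26.7% in line X. At day 16, 3 fell in each line (medians -0.76 in line Y and -1.05 in line X), beside 15.9% of all features in line Y and 20.7% in line X. The summed level of the 7 markers on the array was 4780 to 6180 in line Y and 5160 to 8050 in line X at day 0, 2720 to 4280 and 2790 to 3850 at day 4, and 1570 to 2390 and 1740 to 2960 at day 16. The part of these cells in the fall of SLC18A3 and SLC6A4 was not tested.

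Of the 6 carriers of amino acids and transmitters tested, 2 were called at day 16 relative to day 4 in line Y and 4 in line X, beside 30.1% and 34.8% of all features. SLC7A5 (LAT1, a transporter of large neutral amino acids) rose at day 16 by 0.46 in line Y and 0.43 in line X (adjusted p = 0.000218 and 0.000223), reaching 7.41 to 8.10 in line Y and 7.44 to 8.03 in line X, against 6.98 to 7.60 in line Y and 7.21 to 7.78 in line X at day 4. Pools of the days overlapped in each line, and the 4 probes gave 0.04 to 1.08 in line X. With a background offset of 50 the SLC7A5 call was lost in both lines. SLC6A9, the glycine transporter GLYT1, differed between the lines at day 16 by 0.45 (adjusted p = 0.000351), with 6.16 to 6.73 in line Y and 5.70 to 6.40 in line X. That call was not made under scaling to the array's 75th percentile (0.30, adjusted p = 0.102). The sodium-coupled neutral amino acid transporters SLC38A1 and SLC38A4 were called in no comparison, with differences between -0.32 and 0.19 in the 7 comparisons of 2 groups. The noradrenaline transporter SLC6A2, outside the naming rule and picked after its values were seen, fell by 0.43 at day 16 in line X (adjusted p = 0.000799) and gave -0.28 in line Y. SLC6A2 passed the dark corner limit only in the day 0 groups, where it was high.

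The lysosomal sialic acid exporter SLC17A5 showed a line difference at day 16 only. It ran from 11.95 to 12.21 (median 12.06) in line Y and from 12.42 to 12.96 (median 12.71) in line X on that day, without overlap. Line Y minus line X was -0.63 (adjusted p = 2.17e-10), against differences of 0.01 at day 0 and 0.09 at day 4, and the change of the line difference from day 4 was -0.72 (adjusted p = 9.29e-08). It rose at day 16 in line X by 0.46 (adjusted p = 2.07e-07), whereas line Y gave -0.26, under the fold threshold.

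The array holds SLC19A1 and SLC46A1, the folate carriers of the plasma membrane. SLC19A1, the reduced folate carrier, had 5 probes, all above the limit. Its level was 12.97 to 13.17 (median 13.01) in line Y and 12.46 to 12.84 (median 12.73) in line X at day 0. It was 11.69 to 12.17 (median 11.91) in line Y and 11.46 to 11.91 (median 11.76) in line X at day 4. It was 11.21 to 11.69 (median 11.45) in line Y and 10.53 to 11.28 (median 10.89) in line X at day 16. Every day 4 pool lay below every day 0 pool of its line. SLC19A1 fell 2.21-fold in line Y and 1.95-fold in line X at day 4 (adjusted p = 2.83e-15 and 1.12e-13), and fell again at day 16 by 0.45 in line Y and 0.82 in line X (adjusted p = 1.61e-05 and 1e-11). At day 16 line Y exceeded line X by 0.54 (adjusted p = 2.67e-07), with overlapping pools. SLC46A1, the proton-coupled folate transporter of the proximal small intestine, exceeded its line X level in line Y at day 0 by 0.60 (adjusted p = 2.96e-05), with 9.33 to 9.96 in line Y and 8.75 to 9.49 in line X. Day 4 minus day 0 was -0.47 in line Y, a call (adjusted p = 0.000521), and 0.13 in line X, not past the test, and the lines were then at the same level (difference 0.00 at day 4, adjusted p = 0.995).

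SLC46A3, a lysosomal carrier of the same family, was called 2.05-fold higher in line Y at day 0 (adjusted p = 1.27e-10), with 7.51 to 7.93 in line Y and 6.31 to 6.97 in line X. This call rests on 1 of its 2 probes: the probe above the dark corner limit gave 0.08 and the dimmer probe 1.99. SLC23A2, a sodium-coupled vitamin C transporter outside the naming rule and picked after its values were seen, fell at day 4 by 0.70 in line Y and 0.78 in line X, then rose at day 16 by 0.56 in line X alone (adjusted p = 7.66e-07, against -0.03 in line Y), and the line difference at day 16 was -0.60 (adjusted p = 2.19e-07).

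**Figure D4:**
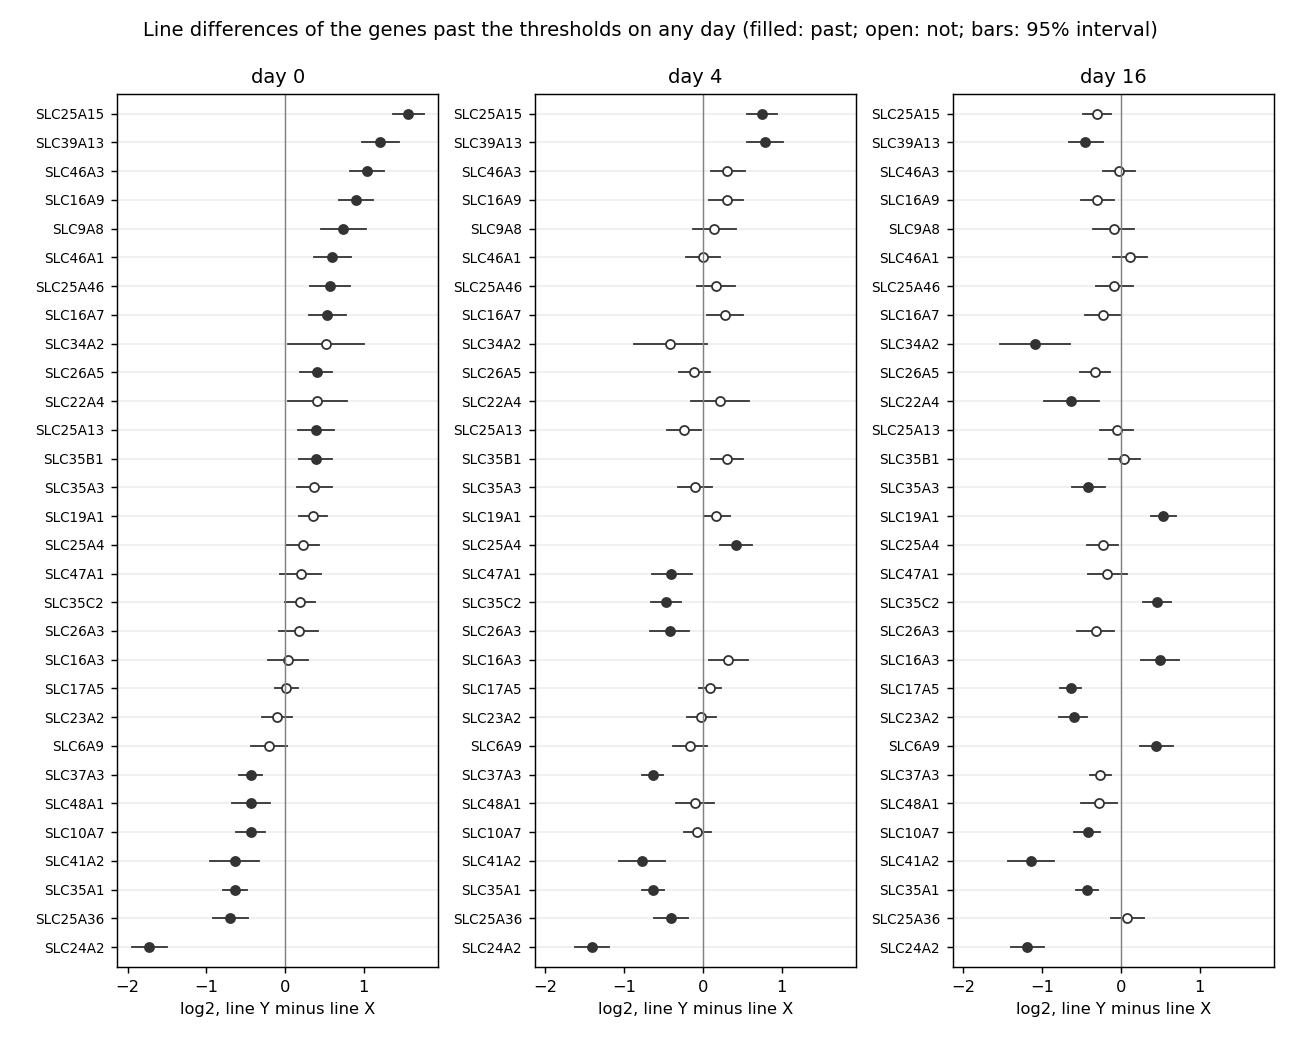
Log2 difference of line Y minus line X (horizontal axis) at days 0, 4 and 16 for the 30 transporters called on any of the days, with 95% intervals and filled points for calls. SLC24A2, SLC41A2 and SLC35A1 lie left of 0 on all 3 days, while SLC39A13 lies at 1.21, 0.79 and -0.45.

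Among the metal carriers, SLC41A2 and SLC39A13 were called between the lines on all 3 days. SLC41A2 transports magnesium. Its level was 8.40 to 9.42 (median 8.90) in line Y and 9.17 to 9.82 (median 9.59) in line X at day 0. It was 9.66 to 10.62 (median 10.23) in line Y and 10.57 to 11.48 (median 10.95) in line X at day 4. It was 9.20 to 10.34 (median 10.08) in line Y and 10.71 to 11.37 (median 11.12) in line X at day 16. The lines overlapped at day 0 and day 4 and were apart at day 16. Line Y minus line X was -0.64, -0.78 and -1.14 at days 0, 4 and 16 (adjusted p = 0.000486, 4.17e-05 and 1.03e-08), and the change of this difference did not pass in either step (-0.14, adjusted p = 0.673, and -0.36, adjusted p = 0.152). Both lines rose at day 4, 2.40-fold in line Y and 2.64-fold in line X (adjusted p = 2.01e-09 and 4.01e-11).

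SLC39A13 (ZIP13) carries zinc out of the Golgi apparatus or vesicles. It ran from 6.82 to 7.12 (median 6.99) in line Y and from 5.47 to 6.19 (median 5.78) in line X at day 0. At day 4 it ran from 6.90 to 7.45 (median 7.13) in line Y and from 5.93 to 6.67 (median 6.45) in line X, and at day 16 from 6.75 to 7.44 (median 6.96) in line Y and from 7.08 to 7.75 (median 7.48) in line X. The line Y pools were all higher at day 0 and day 4, and at day 16 the lines overlapped with line Y lower. The differences were 1.21, 0.79 and -0.45 (adjusted p = 3.96e-12, 1.74e-07 and 0.000522), and the turn between day 4 and day 16 was -1.23 (adjusted p = 1.81e-08). The values of line Y changed by 0.19 and -0.18 in the 2 steps, neither called, while those of line X rose by 0.62 and 1.05 (adjusted p = 4.11e-06 and 3.06e-11). SLC39A13 has 1 probe and passed the dark corner limit only in line Y at day 0 and line X at day 16. With a background offset of 50, its line difference at day 16 (-0.34) and its rise at day 4 in line X (0.36) were no longer called.

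SLC48A1, a heme transporter of endosomes, was lower in line Y at day 0 (-0.44, adjusted p = 0.00239), with 9.74 to 10.47 in line Y and 10.33 to 10.64 in line X. Its 2 probes gave -0.67 and -0.20; with the brightest probe (-0.20) and under scaling to the 75th percentile (-0.36) the call was lost. SLC30A5, which carries zinc into the secretory pathway, was called in no comparison, with differences between -0.31 and 0.18 in the comparisons of 2 groups. Of the 7 metal carriers tested, 2 rose and 0 fell at day 4 in line Y, and 3 rose and 1 fell in line X, beside 42.5% and 51.7% of all features called. At day 16, 0 were called in line Y and 1 rose in line X, beside 30.1% and 34.8% of all features.

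**Figure D5:**
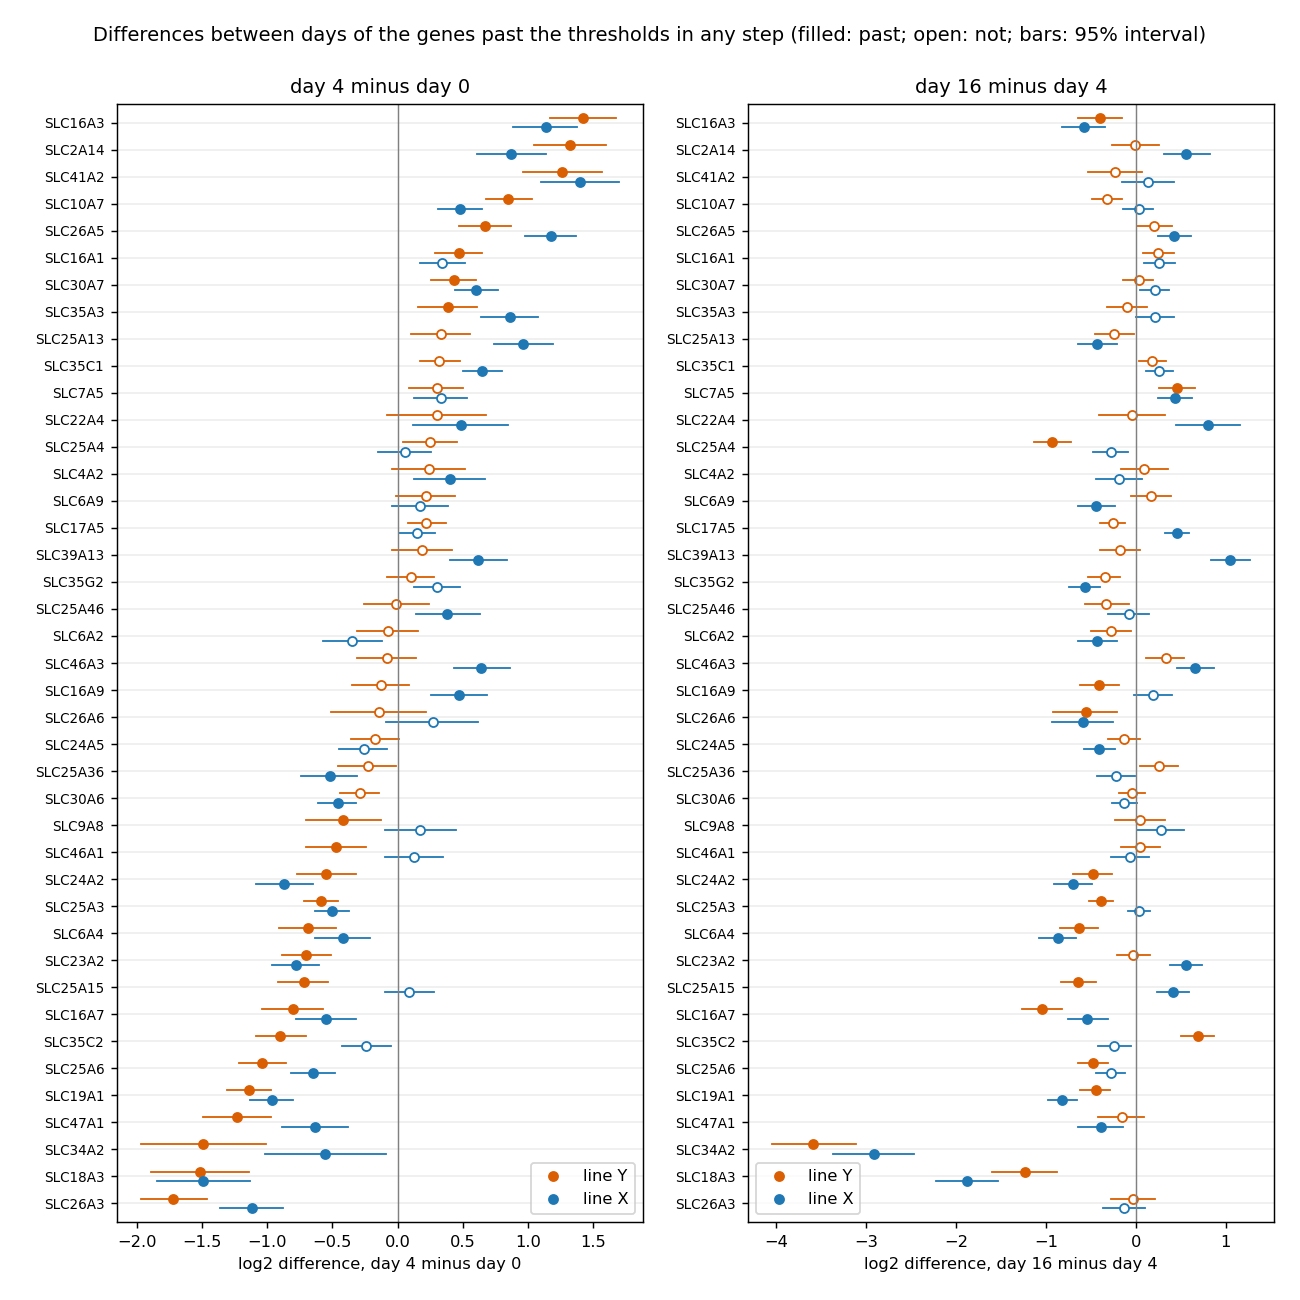
Log2 difference between days (horizontal axes; left, day 4 minus day 0; right, day 16 minus day 4) for the 41 transporters called in any day comparison, line Y in orange and line X in blue, with 95% intervals and filled points for calls. The right panel holds the largest falls, SLC34A2 at -3.59 in line Y and -2.92 in line X, and SLC25A15 with filled points on either side of 0.

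Of the 10 mitochondrial carriers tested, 3 were higher and 1 lower in line Y at day 0, near the 37.6% of all features. SLC25A15 brings ornithine into mitochondria, a step of the urea cycle in mammals. It ran from 8.51 to 8.73 (median 8.57) in line Y and from 6.61 to 7.42 (median 7.05) in line X at day 0. At day 4 it ran from 7.69 to 8.00 (median 7.85) in line Y and from 6.71 to 7.37 (median 7.13) in line X, and at day 16 from 6.96 to 7.57 (median 7.24) in line Y and from 7.32 to 7.68 (median 7.59) in line X. The lines stood apart at days 0 and 4 and overlapped at day 16. The line difference was 1.56 ± 0.10 at day 0 and 0.75 ± 0.09 at day 4 (± SE, adjusted p = 9.51e-18 and 1.4e-08), and -0.30 at day 16, under the fold threshold (adjusted p = 0.00483). It changed by -0.81 at day 4 and by -1.05 at day 16 (adjusted p = 6.42e-05 and 1.73e-08). In line Y SLC25A15 fell by 0.72 and 0.64, and in line X it gave 0.09 and then rose by 0.41 (adjusted p = 0.000173). It has 1 probe, above the limit only in line Y at day 0 and line X at day 16. The call of its rise in line X was lost with a background offset of 50 (0.31) and without the line X pool 13 of day 4.

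The ADP/ATP carriers SLC25A4 and SLC25A6 exchange the adenine nucleotides of mitochondria and cytosol. SLC25A6 had levels of 13.93 to 14.53 in line Y and 14.14 to 14.46 in line X at day 4, against 15.13 to 15.45 in line Y and 14.68 to 15.17 in line X at day 0, with no overlap of the days. It fell by 1.04 in line Y and 0.65 in line X (adjusted p = 1.15e-13 and 7.86e-09), and in line Y by a further 0.48 at day 16 (adjusted p = 8.08e-06). SLC25A4 instead held its level at day 4, with 0.25 in line Y and 0.06 in line X, neither called. At day 16 it fell in line Y to 10.75 to 11.28, against 11.62 to 12.27 at day 4 (-0.93, adjusted p = 4.42e-10), and line X gave -0.28, under the fold threshold; the change of the line difference was -0.64 (adjusted p = 0.000295). SLC25A36, a pyrimidine nucleotide carrier, was lower in line Y at day 0 (-0.70, adjusted p = 1.39e-06), but its probe above the limit gave -0.29 and the other -1.10, and the kept probe alone missed the fold threshold. The phosphate carrier SLC25A3, outside the naming rule and picked after its values were seen, fell at day 4 by 0.59 in line Y and 0.50 in line X.

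Nucleotide sugar carriers feed the Golgi apparatus for glycosylation. SLC35A1, the CMP-sialic acid transporter, was lower in line Y on all 3 days without overlap. It ran from 11.95 to 12.32 in line Y and 12.41 to 13.06 in line X at day 0, from 11.93 to 12.28 in line Y and 12.56 to 12.88 in line X at day 4, and lay at 12.15 to 12.49 in line Y and 12.57 to 12.76 in line X at day 16. The differences were -0.64, -0.63 and -0.43 (adjusted p = 2.09e-09, 1.88e-09 and 2.12e-06), and neither line changed past the thresholds with age. SLC35A1 has 1 probe, above the limit in all 6 groups.

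SLC35C2, which promotes fucosylation of Notch in mammalian cells, turned over between days 4 and 16. It ran from 7.40 to 7.96 (median 7.72) in line Y and from 7.93 to 8.48 (median 8.17) in line X at day 4. At day 16 it ran from 8.14 to 8.65 (median 8.43) in line Y and from 7.79 to 8.17 (median 7.96) in line X. Line Y was thus the lower at day 4 and the higher at day 16, with slight overlap on each day. The differences were -0.47 and 0.46 (adjusted p = 7.95e-05 and 4.1e-05), and the change between the days was 0.93 (adjusted p = 2.07e-07). Line Y fell by 0.90 at day 4 and rose by 0.69 at day 16 (adjusted p = 9.16e-11 and 6.17e-08), and line X gave -0.24 at each step, under the fold threshold. SLC35B1, a nucleotide carrier of the endoplasmic reticulum, was 0.39 above its line X level in line Y at day 0 (adjusted p = 0.00203), a call lost when any of 6 of 14 pools was left out. The SLC35B1 call was also lost with the brightest probe, with the probe above the limit alone and with a background offset of 50. SLC37A3, of the sugar phosphate family, was called lower in line Y at day 0 and day 4 (-0.44 and -0.64, adjusted p = 1.11e-06 and 2.09e-10), but at day 0 the probe above the limit gave 0.03 and the dimmer probe -0.92.

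Of the organic ion carriers, SLC47A1 (MATE1), which exports organic cations in exchange for protons, fell at day 4 by 1.23 in line Y and 0.63 in line X (adjusted p = 8.23e-11 and 2.73e-05). It ran from 8.42 to 9.05 in line Y and 8.84 to 9.35 in line X at day 4, against 9.59 to 10.36 in line Y and 9.18 to 10.15 in line X at day 0. The days were apart in line Y and overlapped in line X, and the line difference changed by -0.60 (adjusted p = 0.0146). Under scaling to the 75th percentile that change was -0.41 (adjusted p = 0.14). SLC22A4 (OCTN1, an ergothioneine transporter in humans) rose at day 16 in line X by 0.80 (adjusted p = 0.000158), with a wide spread of 6.57 to 8.61 over the 8 pools, against 6.61 to 7.11 at day 4. Line Y lay at 6.62 to 7.56 at day 16, and the line difference was -0.63 (adjusted p = 0.00246). SLC22A4 passed the dark corner limit only in line Y at day 0 and in line X at day 16, where it was high.

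The change of the line difference itself was tested in each step. Between day 0 and day 4, 14 genes changed, 0 upwards and 14 downwards, that is with line Y minus line X becoming smaller. This is 24.6%, beside 20.8% of all features (8.83% higher, 12% lower) and 17% of genes with a symbol. The median change was -0.14, beside -0.02 for all features and -0.07 for genes with a symbol. Scaling to the 75th percentile gave 0 upwards and 10 downwards. SLC25A15, SLC26A5, SLC39A13 and SLC9A8, among the 14, passed the dark corner limit only in line Y at day 0 and line X at day 16. At day 0 line Y was the higher for each of them, so the filter partly sets that count. SLC34A2 (-0.94), SLC25A15 (-0.81) and SLC46A3 (-0.73) were the largest. The SLC34A2 change had an adjusted p of 0.0343 and was lost when any of 6 of 29 pools was left out, while its brightest probe alone gave 0.05. It was also lost under scaling to the 75th percentile. The SLC46A3 change was -0.24 and not called with its probe above the limit alone. Between day 4 and day 16, 15 genes changed, 5 upwards and 10 downwards, which is 26.3%, beside 35.2% of all features (20.6% higher, 14.7% lower) and 29.7% of genes with a symbol. Scaling to the 75th percentile gave 3 upwards and 14 downwards. Here SLC39A13 (-1.23), SLC25A15 (-1.05) and SLC35C2 (0.93) led. SLC22A4, SLC25A15 and SLC39A13, among the 10 downwards, passed the limit only in line Y at day 0 and line X at day 16. Line X was the higher at day 16 for each, so the filter partly sets this count as well. The 2 tests share the day 4 pools.

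There remained 16 genes that reached the dark corner limit in no group and were not tested, among them SLC11A1, SLC16A8, SLC17A6, SLC17A9, SLC1A2, SLC22A5, SLC22A7, SLC24A1, SLC45A2, SLC47A2, SLC5A7, SLC6A15, SLC7A1, SLC7A2 and SLC9A9. The scanner marked all of them as well above background in at least 1 pool, and 5 in every pool of some group (SLC11A1, SLC22A5, SLC7A1 and SLC9A9 among them). SLC9A9 was so marked in every pool of all 6 groups, so its exclusion rests on the dark corner limit alone. No level or fold is given for genes under that limit.

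For comparison, other transport genes were read from lists of pumps, ABC transporters, aquaporins, channels and SLCO carriers. Of 8 subunits of the sodium and proton pumps tested, 4 were higher in line Y at day 0 and 0 lower (median 0.39). Of all features, 18.2% were higher and 19.3% lower. At day 4 relative to day 0, 6 of the 8 rose in line X and 1 in line Y (medians 0.47 and 0.20), beside 25% and 18.2% of all features. Among the 4 ABC transporters tested, ABCC6 fell at day 4 in both lines (-0.98 in line Y and -1.10 in line X), while 1 of the 4 rose in line Y and 2 in line X. The share of all features called in that step was 42.5% in line Y and 51.7% in line X. Of the 2 aquaporins tested, 1 rose and 1 fell at day 4 in each line. Both fell at day 16 in each line, beside 15.9% of all features in line Y and 20.7% in line X. AQP4 was the one that fell at each step, by 0.91 and 0.55 in line Y and by 0.66 and 0.87 in line X. The chloride channel CFTR was lower in line Y at day 0 (-0.59, adjusted p = 0.00542) and fell in line X at day 4 by 0.83 and at day 16 by 0.48. It was 1 of 2 channels tested, and the other, SCNN1A, rose in line X at day 4.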

How the data were processed

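Jejunum RNA of 45 pools of 10 birds was hybridised to one-colour Agilent chicken arrays and scanned with Feature Extraction 10.7.3.1, which gave the deposited median foreground and background intensities. The authors corrected these with normexp (offset 1) and quantile normalized them in limma under R 3.0.2, which gave the log2 values they deposited. Both steps were repeated here from the scanner intensities (R 4.3.3, limma 3.58.1 and version 1.17.8 of data.table), and the new values differed from those by at most 5e-09. Arrays of a group correlated at 0.973 to 0.994. On each array 61.8% to 81.9% of probes were well above background and at most 1.05% were saturated. The number of pools limits the precision, and p-values measure the spread between pools.

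The scanner files hold no gene names. Symbols were matched through the RefSeq accession of a probe, for 10458 of 43603 probes, and the other probes are unnamed here. The log2 values of the probes of 1 gene were averaged. A model with 6 group means was fitted to all 45 arrays with lmFit and eBayes, with 9 contrasts. P-values were adjusted by Benjamini-Hochberg over 21443 features, the thresholds being an adjusted p of 0.05 and a fold change of 1.3, and intervals cover 95%. The steps were tested on simulated data. Flagged spots (0.0261%) were kept.

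Genes named in the text were, for each comparison of 2 groups, the 3 with the largest called difference in each direction, for each change of the line difference the 3 largest, and those with a well known role in the gut, which together made 43 genes. The genes and lists were chosen with earlier results of these data known. Pool numbers are shared by the lines: the correlation of deviations of same-numbered pools was over 0.1 in 4 of 7 pairs at day 0, in 7 of 7 at day 4 (0.109 to 0.253) and in 3 of 8 at day 16. Correlations of differently numbered pools were not computed, so these values do not decide whether the numbers pair the pools. A number also fixes the position on the slide. Alternatives covered background correction, normalization, filter, probe summary, fold threshold, pools left out, the pool number or the array position as a block, the groups fitted and the source of the values. Some genes on the array are not reported here.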

Additional observations from a re-analysis of the deposited data

Results flagged for a closer look

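Of 222 group values checked, 13 had a single pool far from the rest of its group, while chance flags about 1 in 20 groups. At day 0 in line Y these were pool 3 for SLC37A3 (7.69) and SLC46A1 (9.33) and pool 4 for SLC2A1 (7.88) and SLC38A4 (6.87). At day 0 in line X they were pool 5 for SLC16A3 (7.29) and SLC19A1 (12.46) and pool 3 for SLC16A7 (8.49). At day 4 in line X pool 10 stood apart for SLC7A5 (7.78). At day 16 in line Y they were pool 18 for SLC16A3 (6.92) and SLC6A4 (5.93) and pool 24 for SLC2A8 (8.78), and in line X pool 24 for SLC2A8 (9.05) and pool 23 for SLC30A5 (11.92).

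Among the named genes 22 differences between the lines changed between ages by the test of the change itself (limma, Benjamini-Hochberg). Day 4 relative to day 0 gave negative changes only, that is line Y minus line X became smaller: SLC34A2 by -0.94 (adjusted p = 0.0343), SLC25A15 by -0.81 (6.42e-05), SLC46A3 by -0.73 (0.000808, but -0.24 and no call with its probe above the limit alone), SLC35C2 by -0.66 (0.000532), SLC46A1 by -0.60 (0.00589), SLC47A1 by -0.60 (0.0146), SLC26A3 by -0.59 (0.0109), SLC26A5 by -0.51 (0.00737), SLC39A13 by -0.43 (0.0429) and SLC25A6 by -0.39 (0.016). Without single pools the SLC39A13 change lost its call in 18 of 29 fits and the SLC25A6 change in 6 of 29. The SLC25A6 change was also lost with the brightest probe (-0.30) and under scaling to the 75th percentile (-0.12). That scaling ended the SLC34A2, SLC26A3 and SLC47A1 calls as well. A background offset of 50 ended those of SLC26A5 and SLC39A13. SLC25A15, SLC26A5 and SLC39A13 passed the dark corner limit only in line Y at day 0, where line Y was the higher, and in line X at day 16.

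Day 16 relative to day 4 gave negative changes for SLC39A13 (-1.23, adjusted p = 1.81e-08), SLC25A15 (-1.05, 1.73e-08), SLC22A4 (-0.85, 0.00609), SLC17A5 (-0.72, 9.29e-08), SLC25A4 (-0.64, 0.000295), SLC2A14 (-0.57, 0.0112) and SLC16A7 (-0.51, 0.00808). It gave positive changes for SLC35C2 (0.93, adjusted p = 2.07e-07), SLC18A3 (0.64, 0.035), SLC6A9 (0.61, 0.000947), SLC25A36 (0.48, 0.00894) and SLC37A3 (0.38, 0.00114), the last lost in 15 of 31 fits without 1 pool. The SLC6A9, SLC25A36 and SLC37A3 changes were also lost under scaling to the 75th percentile and with a background offset of 50. That offset ended the SLC18A3 and SLC16A7 calls as well. The SLC18A3 change was further lost with only the compared groups fitted, and in 11 of 31 fits without 1 pool.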

How the results depend on the processing

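Counts of transporters called are given in the order line Y minus line X at days 0, 4 and 16, day 4 minus day 0 in line Y and line X, day 16 minus day 4 in line Y and line X, and the change of the line difference in the earlier and the later step. With the dark corner limit required in all 45 arrays, 25 genes were tested and the counts were 5, 4, 7, 9, 10, 7, 5, 5 and 5. With an absolute log2 difference over 1.3 they were 2, 1, 0, 5, 2, 1, 2, 0 and 0; the 0 for line Y minus line X at day 16 stands beside 14 at the 1.3-fold threshold in limma. A normexp offset of 50 left 14 genes for day 16 minus day 4 in line X. The other alternatives kept each count within 1.5 times. Leaving out 1 pool gave 16 to 21, 8 to 11, 13 to 16, 22 to 24, 26 to 29, 14 to 16, 21 to 23, 11 to 15 and 13 to 18. With pool number as replicate block the line counts were 20, 11 and 15, and no named call changed. The array position as a block was fitted for 6 of the 9 comparisons, where 85 named calls were kept and 3 were lost. The 3 lost calls were SLC4A2 and SLC34A2 for day 4 minus day 0 in line X, and SLC37A3 for the later change.

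For the named genes, 1391 values under alternatives were set beside 123 differences: 1208 stayed on the same side of the thresholds, 180 were no longer past them and 3 turned sign. Of the 1208, 123 came from the deposited values, which differ by at most 5e-09 and so could not change a call. Of the 180, 110 came from the log2 threshold of 1.3. Totals over such unlike alternatives do not measure how firm the results are. The brightest probe gave 0.03 for SLC37A3 (line difference, day 0) and 0.05 for SLC34A2 (change between day 0 and day 4), and the kept probes alone also gave 0.03 for SLC37A3. Without the line X pool 12 at day 4, an alternative added after seeing the data, 3 calls were lost: SLC25A4 at day 4 (0.37), SLC34A2 for day 4 minus day 0 in line X (-0.48) and SLC39A13 for the earlier change (-0.42). Other causes were not tested. Mean foreground intensity was not run.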
